A study of Mus musculus and Homo sapiens with 10 samples.

Results

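L1PA5 is a primate-specific subfamily of the LINE-1 (L1) retrotransposons, and the copies described here are those longer than 5 kb for which RNA was measured in human embryonic stem (ES) cells. All loci annotated as L1PA5 in the table of single L1 copies were taken, with no use of their expression values. They numbered 1104 of 9840 L1 copies, the whole table spanning 64 subfamilies. The RNA came from the human ES line H1 at passage 69. One group was transduced with a lentivirus carrying hairpins against the DNA methyltransferases (LV sh-DNMTs, called the DNMT knockdown below), and the control was transduced with the empty hairpin vector (LV sh-empty). There was 1 library per group, so no value has a replicate check and no test between the groups was possible. Every interval given for a level or a ratio is a 95% interval for counting error only. Differences compare these libraries, and the labels name neither the methyltransferases aimed at nor a time after transduction.

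A full L1 copy carries its own promoter at its 5′ end and encodes proteins that let its RNA be copied back into the genome. The L1PA lineage evolved as a series of subfamilies that replaced one another, with L1HS the youngest and still mobile in humans. L1PA5 lies several steps back and is regarded as immobile. ES cells silence L1 by DNA methylation and by the corepressor KAP1, which KRAB zinc finger proteins bring to DNA and which acts through histone methylation. The study set these mechanisms side by side for L1 lineages of different age, and the human RNA libraries address the DNA methylation arm. In bulk RNA, more cells with a transcript and more transcript per cell cannot be told apart.

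The knockdown library held 92478094 reads, of which 0.230% lay in the L1 copies of the table, and the control library held 100921087 reads, of which 0.149% did. DNMT1, the maintenance methyltransferase, stood at 6.95 RPKM (reads per kilobase, relative to the size of the library) in the knockdown, 28.4% of its 24.5 RPKM in the control. DNMT3B, a de novo enzyme, stood at 75.9 RPKM in the knockdown and 181 RPKM in the control, and its relative DNMT3A at 12.2 RPKM in the knockdown and 17.9 RPKM in the control. All 11 pluripotency markers were present in both libraries, between 12.3 and 921 RPKM. They were not at equal levels, with L1TD1, an RNA-binding protein, at 223 RPKM in the knockdown and 80.3 in the control, and TDGF1, a NODAL co-receptor, at 144 RPKM in the knockdown and 418 in the control. Many markers of other cells were near 0. SOX17, GATA4 and GATA6 of endoderm, HAND1, T and EOMES of mesoderm, and CDX2, GATA3 and CGA of trophectoderm were below 0.1 RPKM in both libraries. The endoderm factor FOXA2 was at 1.24 RPKM in the knockdown and 0.00816 in the control, AFP at 0.596 in the knockdown and 0.190 in the control, and CXCR4 at 0.409 in the knockdown and 0.293 in the control. Summed over its members, the endoderm list reached 2.29 RPKM in the knockdown and 0.514 in the control, and the fibroblast feeder list reached 154 RPKM in the knockdown and 94.9 in the control. The mesoderm, ectoderm and trophectoderm lists summed to 7.62, 50.8 and 2.97 RPKM in the knockdown, and to 11.4, 33.7 and 11.4 RPKM in the control, nearly all of it from KDR, NES and KRT7. Of the 6 fibroblast genes, THY1 stood at 109 RPKM in the knockdown and 35.2 in the control. This gene alone carried the higher sum of that list in the knockdown. COL1A1 went the other way, with 18.2 RPKM in the knockdown and 22.8 in the control, as did COL1A2 with 26.1 in the knockdown and 36.7 in the control. The collagen gene COL3A1 was low but higher in the knockdown, at 0.0926 RPKM beside 0.00722 in the control. POSTN stood at 0.474 RPKM in the knockdown and 0.175 in the control. DCN stood at 0.0201 RPKM in the knockdown and was listed at 0 in the control. Whether such cells were present, and their part in the L1PA5 levels, was not tested.

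Most L1PA5 copies gave very few reads in either library. The median copy had 7 reads in the knockdown (quartiles 4 and 11) and 8 reads in the control (quartiles 5 and 12). In RPKM the medians were 0.0123 in the knockdown and 0.0129 in the control. At the median length of 6120 bp, 1 read was worth 0.00177 RPKM in the knockdown and 0.00162 RPKM in the control. No read fell on 23 copies in the knockdown, which allows up to 0.00530 RPKM for a copy of that length, nor on 24 copies in the control, which allows up to 0.00486 RPKM. The copies at 0 in both libraries numbered 9. By the deposited values, 537 copies were higher and 558 were lower in the knockdown. On the scale log2(RPKM + 0.01), the median difference over all 1104 copies, knockdown over control, was -0.02, and the central 90% of copies lay between -0.81 and 0.92. The bulk of copies was thus spread around no difference. At 7 or 8 reads per copy, a 2-fold difference of a single typical copy was not detectable at this depth.

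The sum over copies differed more than the median. L1PA5 copies together took 15139 reads in the knockdown, or 0.0164% of the library, and 11672 reads in the control, or 0.0116%. The summed RPKM was 27.3 in the knockdown and 19.3 in the control, 1.41 times as high. From the reads the ratio was 1.42, with an interval of 1.38 to 1.45. Increases summed to 12.3 RPKM and decreases to -4.35 RPKM, which left a net 7.95 RPKM. The copy with the largest increase held 22.0% of all increases, the first 2 held 38.7%, the first 3 held 51.6% and the first 10 held 62.9%. The 3 copies with the largest increase took 3751 reads in the knockdown, 24.8% of all L1PA5 reads there, and 166 reads in the control, 1.42% of the reads there. Without them, the other 1101 copies had 11388 reads in the knockdown and 11506 in the control, a ratio of 1.08 (interval 1.05 to 1.11). Without the first 10, the ratio was 1.01 (interval 0.984 to 1.04). Only the largest increases were left out and no decreases, so the net gain had to fall. The intervals do not cover that choice, and these ratios do not show that the other copies were without a difference.

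**Figure D1:**
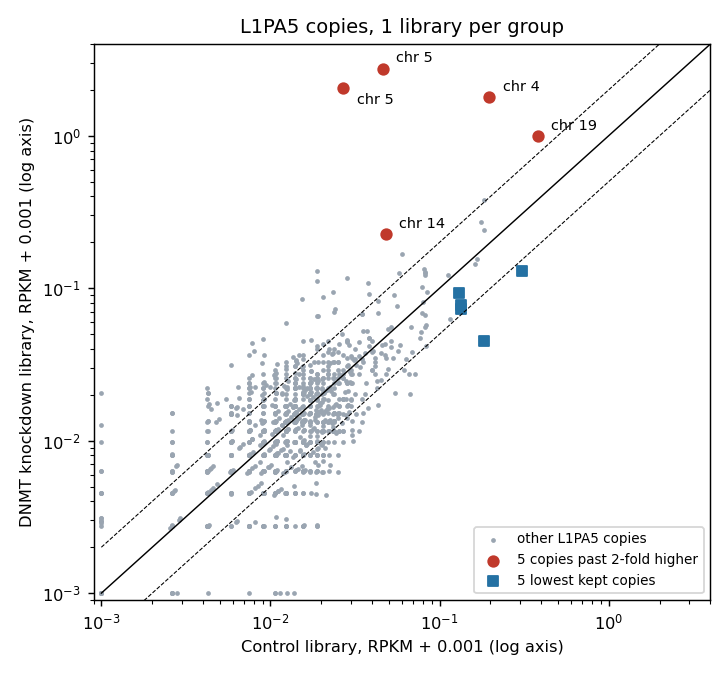
Each point is 1 of the 1104 L1PA5 copies, with its level in the DNMT knockdown library on the vertical axis and in the control library on the horizontal axis, both as RPKM + 0.001 on log axes. The solid line marks equal levels and the dashed lines mark 2-fold differences. The cloud of copies lies around the line of equal levels with medians of 0.0123 RPKM in the knockdown and 0.0129 RPKM in the control, while the 3 copies on chromosomes 4 and 5 lie far above it between 1.78 and 2.76 RPKM in the knockdown.

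For single copies, a difference was counted when log2(RPKM + 0.1) differed by at least 1 between the libraries, among copies with a mean of at least 0.1 RPKM. The pseudocount of 0.1 RPKM makes this log2 difference smaller than the plain ratio for low copies. Only 21 L1PA5 copies (1.90%) reached that mean, 9 of them at 0.1 RPKM or more in both libraries. A further 8 reached it while below 0.1 RPKM in the control, so they had to be higher in the knockdown, and 4 while below it in the knockdown, so they had to be lower there. Of the 21, 5 were past 2-fold higher in the knockdown, beside 22.5% of all 227 L1 copies of that mean. None was past 2-fold lower, beside 2.2% of all L1 copies of that mean. The share of higher copies, 23.8%, was thus near that of all L1 copies of such a mean and is no result about L1PA5. The median log2 difference of the 21 was 0.32, with 14 above 0 and 7 below 0, and that of all 227 L1 copies was 0.47.

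The 2 copies with the largest differences both lay near the end of the long arm of chromosome 5, with their centres 1.73 Mb apart. Coordinates are those of the deposited table, for which the submitters' processing notes name the build hg19. The first was at chromosome 5, 175478760 to 175484884, and is 6125 bp long. It had 1562 reads in the knockdown, or 2.76 RPKM (interval 2.62 to 2.90), and 28 reads in the control, or 0.0453 RPKM (interval 0.0301 to 0.0655). This is a 60.9-fold difference (interval 42.0 to 91.9) and a log2 difference of 4.30 with the pseudocount. The second, at chromosome 5, 177213199 to 177219317, is 6119 bp long. It had 1172 reads in the knockdown, or 2.07 RPKM (interval 1.95 to 2.19), and 16 reads in the control, or 0.0259 RPKM (interval 0.0148 to 0.0421). The ratio was 79.9 (interval 49.0 to 140) and the log2 difference 4.11. In the knockdown they were the 2 highest of all L1PA5 copies. In the control the first lay near the 95th percentile of L1PA5 copies, 0.0441 RPKM, and the second between that and the upper quartile of 0.0193 RPKM. The intervals of their ratios overlap, so the reads do not tell which of the pair differed more. Whether the same reads were counted at both copies was not tested, and the pair may therefore not be 2 separate observations. The same holds for the L1PA4 copies near them, described further on.

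The third was at chromosome 4, 167664640 to 167670800, 6161 bp long. It had 1017 reads in the knockdown, or 1.78 RPKM (interval 1.68 to 1.90), and 122 reads in the control, or 0.196 RPKM (interval 0.163 to 0.234), a ratio of 9.10 (interval 7.53 to 11.1). Unlike the pair on chromosome 5, this copy was already among the 5 highest L1PA5 copies of the control. Over all 9840 L1 copies of the table, these 3 copies ranked 3, 4 and 5 by gain in RPKM.

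The other 2 copies past the line differed by much less. The copy at chromosome 19, 12017069 to 12022645, had the highest control level of all L1PA5 copies. It had 513 reads in the knockdown, or 0.995 RPKM (interval 0.910 to 1.08), and 214 reads in the control, or 0.380 RPKM (interval 0.331 to 0.435), a ratio of 2.62 (interval 2.23 to 3.08). The copy at chromosome 14, 27826750 to 27832861, was the one just inside the line. It had 128 reads in the knockdown, or 0.226 RPKM, and 29 reads in the control, or 0.0470 RPKM, with a log2 difference of 1.15 on the pseudocount scale and a plain ratio of 4.82 (interval 3.20 to 7.48). Just outside the line was the copy at chromosome X, 14702032 to 14707071. It had 176 reads in the knockdown, or 0.378 RPKM, and 93 reads in the control, or 0.183 RPKM, with a log2 difference of 0.76 and a ratio of 2.07 (interval 1.60 to 2.68). Without the pseudocount this last copy would be past 2-fold as well. So would the copy at chromosome 5, 30947864 to 30954237, with a ratio of 2.84 (interval 1.94 to 4.25). The lower copies at chromosome 15, 25500760, and chromosome 5, 89442587, described below, would be past 2-fold lower, with ratios of 0.241 and 0.424. The counts past the line thus depend on the pseudocount.

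The next copies in order had log2 differences between 0.29 and 0.75. The copy at chromosome 5, 30947864 to 30954237, stood at 0.168 RPKM in the knockdown and 0.0591 in the control, and the copy at chromosome 4, 20740248 to 20746401, at 0.272 RPKM in the knockdown and 0.176 in the control. The remaining 4 of the 12 highest, on chromosomes 11, 12, 3 and 2, stood between 0.122 and 0.132 RPKM in the knockdown and between 0.0797 and 0.0808 RPKM in the control. Each had 50 or fewer reads in the control, and the lower ends of their ratio intervals were between 1.03 and 1.13. Their differences were hardly larger than counting error.

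Some copies were lower in the knockdown. The lowest was at chromosome 15, 25500760 to 25506894, with 25 reads in the knockdown, or 0.0441 RPKM (interval 0.0285 to 0.0650), and 113 reads in the control, or 0.183 RPKM (interval 0.150 to 0.219). Its ratio was 0.241 (interval 0.150 to 0.375) and its log2 difference -0.97, so it lay just short of the 2-fold line on the pseudocount scale. The copy at chromosome 5, 89442587 to 89448702, the second highest L1PA5 copy in the control, stood at 0.129 RPKM in the knockdown (interval 0.101 to 0.162) and 0.305 RPKM in the control (interval 0.263 to 0.351). The ratio was 0.424 (interval 0.319 to 0.558). Copies on chromosomes 14, 2 and 8 followed, with log2 differences of -0.44, -0.40 and -0.25. The ratio interval of the chromosome 8 copy, 0.491 to 1.03, included no difference.

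The 5 copies with the highest control level thus went both ways. Those on chromosomes 19, 4 and X were higher in the knockdown, with ratios of 2.62, 9.10 and 2.07. Those on chromosomes 5 and 15 were lower, with ratios of 0.424 and 0.241. None of the 5 ratio intervals overlapped 1. The copies were picked for their control level, which is also the lower term of each ratio, and the intervals do not cover that choice.

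**Figure D2:**
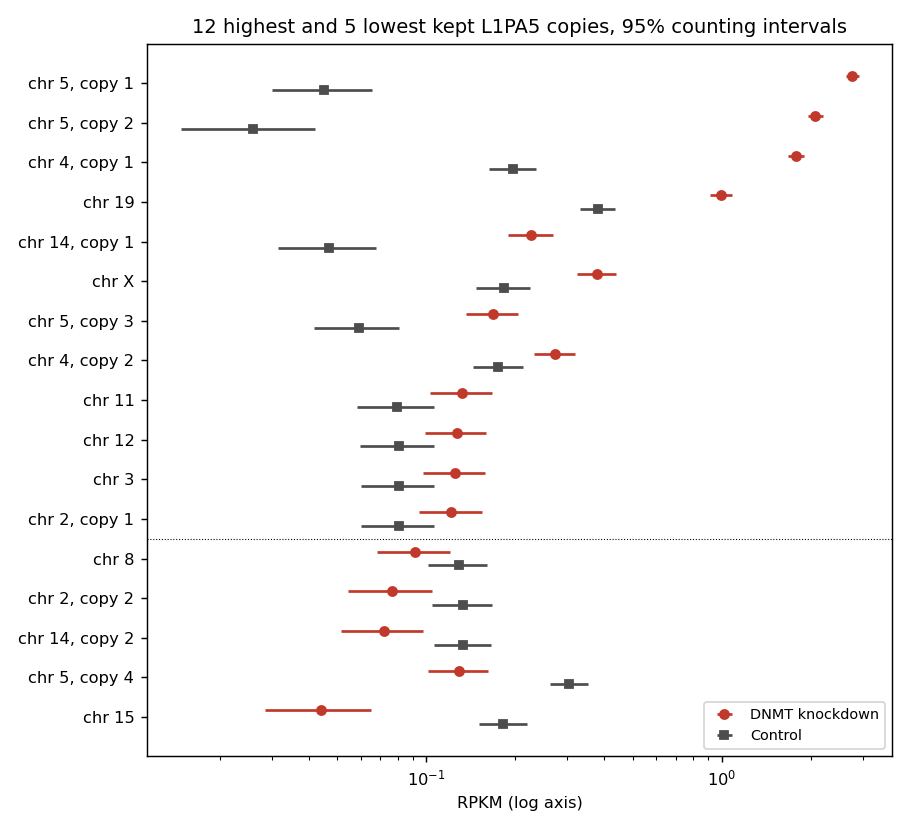
Levels of the 12 highest and, below the dotted line, the 5 lowest L1PA5 copies by log2 difference among those with a mean of at least 0.1 RPKM, with the DNMT knockdown above the control in each row, RPKM on a log axis and bars for the 95% counting intervals. The first 3 rows are separated by far more than their intervals, at 1.78 to 2.76 RPKM in the knockdown and 0.0259 to 0.196 RPKM in the control. From the chr 11 row to the dotted line the intervals of the libraries meet.

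A less strict rule, added after these values were seen, showed how far smaller differences extend. Of the 1104 copies, 356 (32.2%) had at least 20 reads over both libraries. With a pseudocount of 0.01 RPKM, 32 of them (8.99%) were past 2-fold higher in the knockdown, beside 31.0% of all 4175 L1 copies with that many reads. Past 2-fold lower were 9 (2.53%), beside 1.03% of all such L1 copies. The higher copies lay on 16 chromosomes and the lower ones on 6. In all 32 and all 9 the counting interval of the ratio lay on 1 side of 1. Both sets were picked for at least 20 reads and a large ratio in the same values, so these intervals are no separate support. After the 3 copies above, the highest by this log2 difference were at chromosome 5, 58306602 to 58312118 (66 reads in the knockdown, 10 in the control), and at chromosome 8, 48397433 to 48403568 (63 reads in the knockdown, 11 in the control). Both shares are descriptions, and the set of all L1 copies is led by L1HS and L1PA2, of which 89.2% and 55.5% were past 2-fold higher by the same rule, against 38 of 659 L1PA4 copies (5.77%), 20 of 154 L1PA6 copies and 25 of 122 L1PA7 copies (20.5%). Past 2-fold lower were 3 of these L1PA4 copies, 6 of the L1PA6 copies (3.90%) and 12 of the L1PA7 copies (9.84%). The median log2 difference of the 356 copies was 0.09, with quartiles of -0.38 and 0.52. By depth, 12 of 263 copies with 20 to 39 reads were higher and 3 lower. With 40 to 79 reads, 10 of 60 copies were higher and 4 lower, and with 80 reads or more, 10 of 33 were higher and 2 lower. Depth here is the reads of both libraries, so a copy's own rise moves it to a deeper bin. The larger share of higher copies in deeper bins is thus partly set by the binning.

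L1PA5 was set beside its neighbours in the lineage. The median level per copy was 3.47 times as high in the knockdown as in the control for L1HS, 2.57 times for L1PA2, 1.59 times for L1PA3, 1.08 times for L1PA4, 0.955 times for L1PA5, 0.882 times for L1PA6 and 0.780 times for L1PA7. In this order the L1PA5 median lay between those of L1PA4 and L1PA6. With 1 library per group, these 3 ratios were not tested against each other. The median copy had 7 reads in the knockdown and 8 in the control for L1PA5, 4 and 5 for L1PA6, and 2 and 3 for L1PA7. The median ratios below 1 thus rest on very few reads per copy, where whole reads make coarse steps. Copies with a higher value in the knockdown made up 98.5% of L1HS copies, 82.7% of L1PA3, 54.7% of L1PA4, 48.6% of L1PA5 and 45.1% of L1PA6. The summed level of L1PA5 did not follow that order. Its ratio of 1.41 was above the 1.16 of L1PA4 and the 1.12 of L1PA6. Without the 3 copies with the largest gain in each subfamily the ratios were 1.08 for L1PA5, 1.12 for L1PA4, 1.01 for L1PA6, 1.59 for L1PA3 and 3.36 for L1HS. The 3 largest gains held 51.6% of the increases in L1PA5 and 59.2% in L1PA6, but 12.9% in L1PA4, 3.98% in L1PA3 and 2.25% in L1HS. In L1PA7 they held 27.7%, a share between those of L1PA4 and L1PA5. The summed ratio of L1PA7 was 1.01, and 0.911 without its 3 largest gains. Most of the gain of L1PA6 thus also lay in a few copies, and that of L1HS was spread over nearly all copies. The labels do not say how reads that match several copies were placed, and the part of such reads in the differences was not tested.

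**Figure D3:**
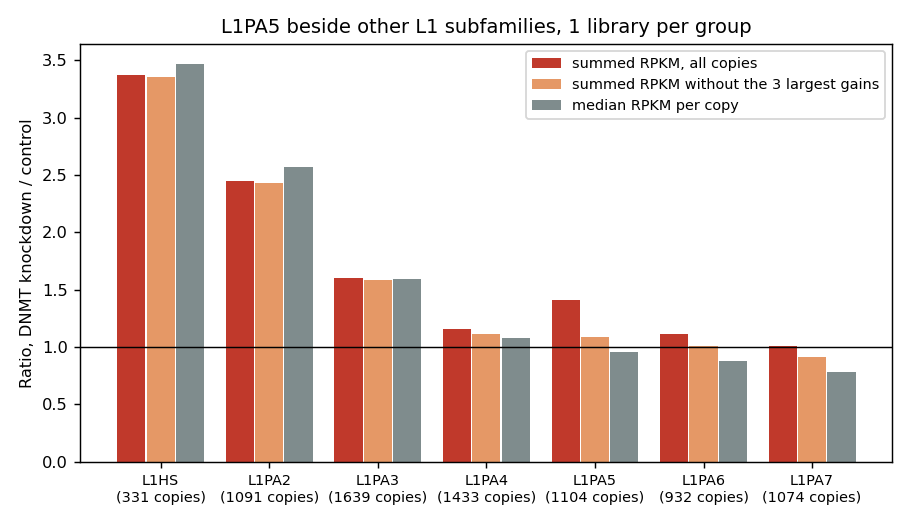
Ratio of the DNMT knockdown to the control for 7 L1 subfamilies, as bars for the summed RPKM of all copies, the summed RPKM without the 3 copies with the largest gain, and the median RPKM per copy. For L1PA5 the bars are 1.41, 1.08 and 0.955, whereas for L1HS they are 3.37, 3.36 and 3.47.

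By chromosome, the gain in summed L1PA5 level was largest on 3 of 24. The summed L1PA5 level was 3.84 times as high in the knockdown as in the control on chromosome 5, which has 86 copies, 2.33 times on chromosome 4 with 91 copies, and 2.24 times on chromosome 19 with 6 copies. Each of these chromosomes holds at least 1 of the 4 copies with the largest gain. Without those 4 copies the ratios were 1.04 on chromosome 5, 1.28 on chromosome 4 and 0.911 on chromosome 19. The 4 copies were picked for their gain in these same values, so these 3 ratios had to fall. No copy was left out elsewhere. On the other 21 chromosomes the ratio of sums lay between 0.849 and 1.21. Chromosome X, with 97 copies the richest in L1PA5, had a ratio of 1.14.

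**Figure D4:**
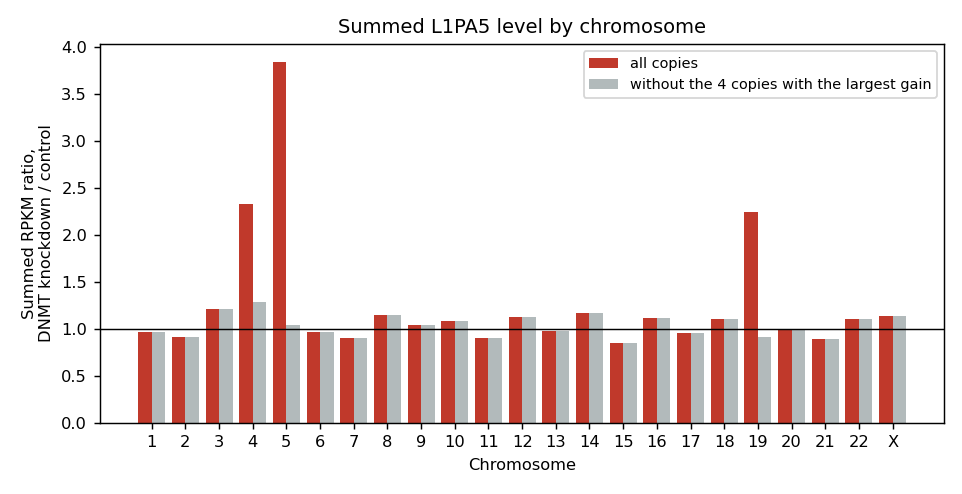
Ratio of summed L1PA5 RPKM, DNMT knockdown over control, for the autosomes and chromosome X, with all copies and without the 4 copies with the largest gain. Chromosomes 5, 4 and 19 stand out at 3.84, 2.33 and 2.24, and without the 4 copies they are at 1.04, 1.28 and 0.911. The 4 copies were picked for their gain in the same values, so these ratios had to fall.

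Copies of each length class had median levels close to each other in the 2 libraries. L1PA5 copies measured 5005 to 6680 bp, and 863 of them had at least 6000 bp. The ratio of median levels, knockdown over control, was 0.885 for the 86 copies under 5500 bp, 0.959 for the 155 copies from 5500 bp to under 6000 bp, 1.00 for the 144 copies from 6000 bp to under 6100 bp, 0.955 for the 692 copies from 6100 bp to under 6200 bp, and 0.969 for the 27 longer ones. Of the 32 copies past 2-fold higher by the less strict rule, 75% had at least 6000 bp, beside 78.1% of the 356 copies with that many reads. The 3 copies with the largest gain all exceeded 6100 bp, as did most L1PA5 copies.

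Other L1 copies close to the 5 copies past the line were looked up within 300 kb. Next to the first chromosome 5 copy, at 26.4 kb, an L1PA4 copy had 268 reads in the knockdown and 11 in the control, a ratio of 26.6 (interval 14.6 to 53.9). Next to the second, an L1PA4 copy at 32.3 kb had 266 reads in the knockdown and 17 in the control (ratio 17.1, interval 10.5 to 29.8), and another at 237.6 kb had 151 reads in the knockdown and 11 in the control (ratio 15.0, interval 8.14 to 30.7). These 3 L1PA4 copies had ratios far above those of their subfamily. Of 494 L1PA4 copies within 300 kb of any other L1PA5 copy, 0 had a ratio as high as the lowest of the 3, and their summed ratio was 1.12. Copies without a control read have no ratio and could not enter that count. The median L1PA4 copy had only 9 reads in each library, so many copies could hardly show such a ratio. An L1HS copy 14.0 kb from the second copy had 70 reads in the knockdown and 14 in the control, a ratio of 5.46 (interval 3.05 to 10.5), which overlaps the 3.37 of L1HS as a whole. At 224.7 kb from the first copy, an L1PA2 copy had 24 reads in each library (ratio 1.09, interval 0.593 to 2.01), and an L1PA5 copy at 230.3 kb had 23 reads in the knockdown and 13 in the control (ratio 1.93, interval 0.938 to 4.15). The difference around the first copy was thus not seen in every L1 copy of the region.

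Around the chromosome 4 copy, L1 copies of 3 subfamilies were higher in the knockdown. An L1HS copy at 12.3 kb had 55 reads in the knockdown and 14 in the control (ratio 4.29), another L1PA5 copy at 20.7 kb had 20 reads in the knockdown and 4 in the control (ratio 5.46, interval 1.83 to 22.0), a further L1HS copy at 173.6 kb had 73 reads in the knockdown and 21 in the control (ratio 3.79), and an L1PA2 copy at 280.2 kb had 55 reads in the knockdown and 7 in the control (ratio 8.57, interval 3.89 to 22.3). The intervals of both L1HS copies, 2.35 to 8.35 and 2.31 to 6.49, include the ratio of their subfamily, whereas those of the L1PA2 and the L1PA5 copy lie above the 2.45 and 1.41 of theirs. Near the chromosome 19 copy, the only other L1 copy in the window was an L1PA3 copy with a ratio of 2.09 (interval 1.25 to 3.58). That interval includes the 1.60 of L1PA3 as a whole. Of 449 L1PA3 copies within 300 kb of any other L1PA5 copy, 132 had a ratio at least as high. Near the chromosome 14 copy the only other L1 copy was an L1PA13 copy. It had 30 reads in the knockdown and 5 in the control (ratio 6.55, interval 2.52 to 21.6). The strand of the copies and the genes around them were not analysed here, since no annotation of the build was used.

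**Figure D5:**
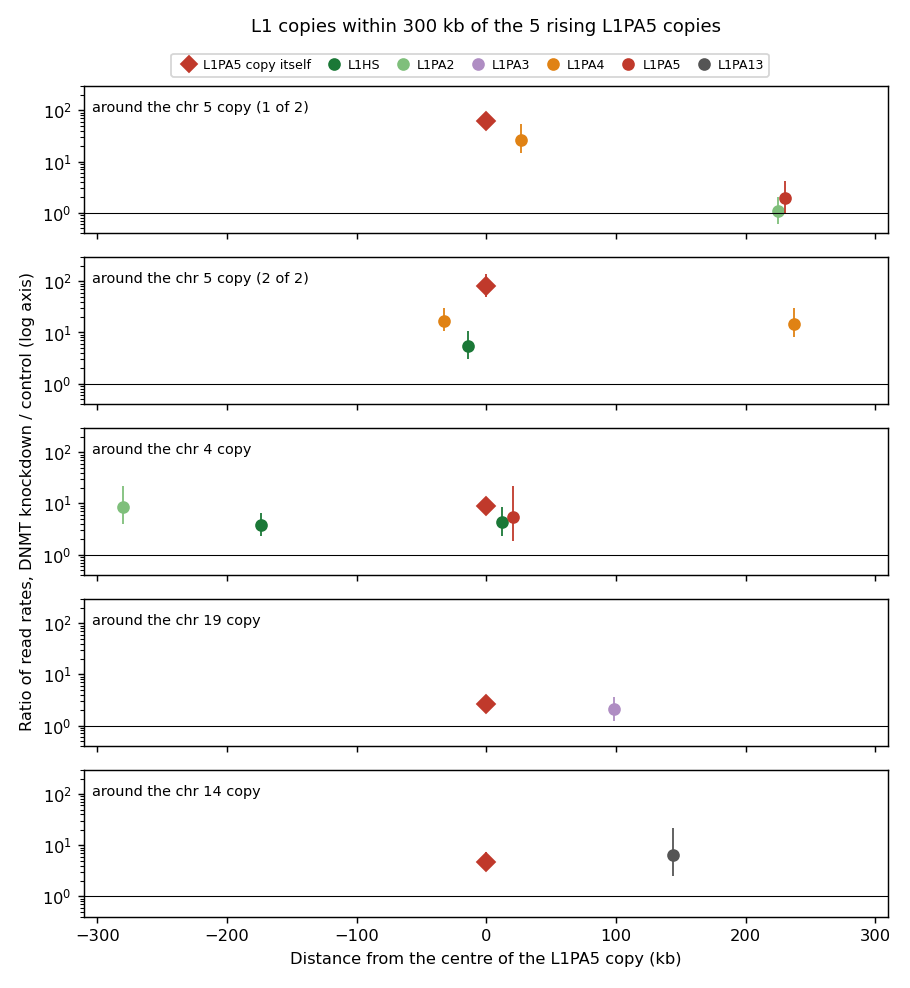
Each panel shows the L1 copies within 300 kb of 1 of the 5 L1PA5 copies past the 2-fold line, with the distance from its centre in kb on the horizontal axis, the ratio of the DNMT knockdown to the control on a log axis, bars for 95% counting intervals and colours for the subfamilies. In the panels of chromosome 5 the orange L1PA4 points have ratios of 26.6, 17.1 and 15.0, the closest to the 60.9 and 79.9 of the L1PA5 copies.

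Genes that act on L1 were read from the RefSeq table of the same libraries, where 4.37% of 13043 genes with a mean of at least 0.5 RPKM were past 2-fold higher in log2(RPKM + 0.5) and 4.97% were past 2-fold lower. Of the 14 genes of the KAP1 and heterochromatin list, 0 were past 2-fold in either direction, with a median log2 difference of 0.05, against 0.01 for all those genes. TRIM28, which encodes KAP1, stood at 233 RPKM in the knockdown and 182 in the control, and SETDB1, the histone H3 methyltransferase it recruits, at 8.65 RPKM in the knockdown and 9.70 in the control. ZNF93, a zinc finger protein known to bind L1PA4 and L1PA3 elements, stood at 8.25 RPKM in each library. CBX5, a heterochromatin protein, had the largest difference of the list, at 12.4 RPKM in the knockdown and 23.5 in the control. Of 10 L1 restriction genes, 0 were past 2-fold higher and 1 was past 2-fold lower. That gene was SAMHD1, a dNTP hydrolase, with 4.19 RPKM in the knockdown and 10.8 in the control. The helicase MOV10 stood at 9.95 RPKM in the knockdown and 17.4 in the control. Of 8 DNA methylation genes, 7 were found in the table and 5 had a mean of at least 0.5 RPKM. Among these, DNMT1 and DNMT3B were past 2-fold lower, while the dioxygenases TET1 (10.2 RPKM in the knockdown, 8.32 in the control) and TET3 (3.26 RPKM in the knockdown, 2.58 in the control) were not past 2-fold.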

How the data were processed

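RNA-seq of cytoplasmic, poly(A)-selected RNA was analysed, per the labels' protocols. The authors deposited RPKM values for single L1 copies and for RefSeq entries. Bowtie 0.12.5 and hg19 are named in the submitters' processing notes; no label says how multi-mapping reads were placed or whether strand was used. Multiplying RPKM by copy length gave whole reads for all copies within 0.01 reads, and the library totals of 92478094 (knockdown) and 100921087 (control) reads. This step was tested on simulated data. Fold counts were simulated only with a pseudocount of 0.01 RPKM, for copies with at least 20 expected control reads. The counting rule with 0.1 RPKM was not tested in that way. Poisson intervals (exact) were used for levels and conditional binomial (Clopper-Pearson) intervals for ratios of reads, in Python 3.11.15 with scipy 1.17.1 and pandas 2.3.3. They cover counting error only. Reads without molecular identifiers are not independent molecules. RefSeq entries were reduced to the highest entry of each of 22060 symbols.

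With 1 library per group no test was run. Copies named are the 12 highest and 5 lowest by log2 difference with a mean of at least 0.1 RPKM, the 5 highest in the control, and those beside the 2-fold line. Members and lists were chosen with earlier results of these data known. Alternatives covered pseudocounts, filters, scaling, copy length and left-out copies. UHRF1, of the DNA methylation list, was not analysed here. The mouse samples were not used here.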

Additional observations from a re-analysis of the deposited data

How the results depend on the processing

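At the median of 7 or 8 reads a copy, depth hides a 2-fold difference, while copies with more reads resolve smaller ones, such as the chromosome 4 copy at 20740248 with a ratio of 1.55 (interval 1.21 to 2.00). The 5 copies higher became 3 with a pseudocount of 0.5 RPKM, and, with alternatives chosen after seeing the data, 32 for copies of at least 20 reads over both libraries with a pseudocount of 0.01 RPKM and 2 for the 14 copies with a control of at least 0.1 RPKM. The 0 copies lower became 2 with a pseudocount of 0.01 RPKM and 9 with at least 20 reads. The median log2 difference was 0.32 (binomial interval of the median over copies -0.099 to 0.76). That interval takes copies as independent draws. Copies are not replicates, so it is no error of the knockdown and serves here only to sort the alternatives. The median was 0.11 with a pseudocount of 0.5 RPKM, 0.57 with 0.01 RPKM and 0.089 with at least 20 reads. It turned to -0.0036 with no filter and to -0.079 with the filter on the control alone. It was 3.39 for the 4 copies with a mean of at least 0.5 RPKM, a filter that leaves the highest copies. The summed ratio of 1.41 was 1.47 for copies of at least 6000 bp, 1.01 without the 10 copies with the largest gain and 1.08 without 3. The 62.9% of increases in the 10 largest was 63.2% after dividing by the median gene ratio, 68.3% for copies of at least 6000 bp and 27.3% without the 3 copies. The median gene log2 difference of 0.01 was 0 with no filter. The other 16 of 34 alternative values stayed within 1.5 times the count or within the interval of the value. No paired analysis was possible because each human group has 1 library.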
